A study of Mus musculus with 151 samples.

Results

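Anti-Mullerian hormone, the inhibins and the activins are secreted regulators of the TGF-beta superfamily that the follicle uses to control its own growth and the output of the pituitary. The genes described here were taken by name: Amh and its receptor Amhr2, the inhibin alpha subunit Inha, the beta subunits Inhba and Inhbb, the activin type II receptors Acvr2a and Acvr2b, the coreceptor Tgfbr3 and the activin-binding protein Fstl3. These are 9 of the 35976 gene names in each of 7 count tables, and all 9 were listed in all 7 tables. Fst, the other activin-binding protein, is given beside Fstl3.

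The study compared female mouse offspring conceived by in vitro fertilization (IVF) with naturally conceived females (Natural), all with B6/SJL sires and CF-1 dams and no engineered allele. IVF offspring came from oocytes of superovulated CF-1 females that were fertilized and cultured to blastocysts before transfer into pseudopregnant CF-1 recipients, whereas Natural offspring developed in vivo after mating in an unstimulated cycle. RNA was sequenced from fetal ovaries of E18.5 (n = 4 Natural, 6 IVF) and from adult ovaries of 12 weeks (n = 4 Natural, 5 IVF) and 39 weeks (n = 5 Natural, 5 IVF), from 12-week cumulus cell pools (5 Natural and 5 IVF), from E13.5 primordial germ cell (PGC) pools (4 Natural and 5 IVF), and from single oocytes at 12 weeks (36 Natural and 40 IVF) and 39 weeks (9 Natural and 10 IVF). One library was made from part of an adult ovary or from a whole fetal gonad, adults had been delivered by cesarean section and fostered, and oocyte and cumulus donors of both groups were superovulated with eCG and hCG. The methods give proestrus for the females used for serum hormones, while the cycle stage of the sequenced ovaries is not given in the sources used here. The methods also give both E18.5 and a later day for the collection of IVF fetuses, so the fetal groups may differ in age. For the adult cohorts the paper gives cesarean delivery at E18.5 in Natural and on a later day in IVF. Day of delivery therefore cannot be told apart from conception in the adult comparisons.

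In the adult ovary, granulosa cells of growing follicles make AMH, which acts through AMHR2 and a type I receptor to restrain the recruitment of primordial follicles and the response to FSH. A beta subunit joined to the alpha subunit is an inhibin, which lowers pituitary FSH secretion. Beta subunits joined to each other are activins, which raise FSH secretion and signal in the follicle through ACVR2A and ACVR2B. Betaglycan, the product of Tgfbr3, lets inhibin compete for these receptors, and follistatin and FSTL3 bind activin and keep it from them.

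The sequences just upstream of the subunit genes differed in composition, and 3 are printed because the subunits and the AMH receptor are the members on which the results turn. Each runs 5′ to 3′ over the 250 bases before the transcription start on the gene's own strand, from RefSeq on build GRCm38.p6, which matched 7 of the 9 members. Inhba lies at chr13:16011851-16031621 (plus strand, mm10), Inhbb at chr1:119415465-119422248 (minus strand), Amhr2 at chr15:102445367-102454633 (plus strand), Inha at chr1:75507077-75510366 (plus strand) and Amh at chr10:80805243-80807648 (plus strand). Capitals mark CG dinucleotides in Inhba and Inhbb and the letters AAGGTCA, the half-site of NR5A receptors, in Amhr2.
Inhba, chr13:16011601-16011850: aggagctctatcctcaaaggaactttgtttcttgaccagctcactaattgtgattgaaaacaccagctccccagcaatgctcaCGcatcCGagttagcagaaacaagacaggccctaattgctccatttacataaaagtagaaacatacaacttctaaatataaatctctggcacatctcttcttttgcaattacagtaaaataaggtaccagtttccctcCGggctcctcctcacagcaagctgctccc
Inhbb, chr1:119422249-119422498: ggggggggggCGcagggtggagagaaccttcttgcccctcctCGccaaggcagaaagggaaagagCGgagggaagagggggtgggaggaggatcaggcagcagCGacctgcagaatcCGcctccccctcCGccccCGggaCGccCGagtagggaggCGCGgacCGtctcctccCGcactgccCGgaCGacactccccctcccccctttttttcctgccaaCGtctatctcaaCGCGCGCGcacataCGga
Amhr2, chr15:102445117-102445366: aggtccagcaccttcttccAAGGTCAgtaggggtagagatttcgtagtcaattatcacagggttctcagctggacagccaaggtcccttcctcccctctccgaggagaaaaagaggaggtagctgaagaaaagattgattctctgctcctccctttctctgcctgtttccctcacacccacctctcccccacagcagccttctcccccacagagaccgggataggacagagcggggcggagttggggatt
The Inhba window held 3 CG dinucleotides at 43.2% G+C and the Inhbb window 21 at 68%, against medians of 6 and 52.4% over 32851 windows of that length. AAGGTCA was searched on both strands and was present in 1 of the 7 member windows, that of Amhr2, beginning 231 bases before the start, and in 4.08% of all windows. TGACG, the half-site of cyclic AMP response elements, was in none of the 7 member windows and in 17.8% of all windows. The window of Inha, chr1:75507359-75507608, lies inside the gene and does not cover the bases before the gene start given above, and those of Acvr2b and Fstl3 reach past the start in the annotation. The windows of Acvr2a, Acvr2b and Fstl3, which are not printed, held 49, 24 and 22 CG dinucleotides.

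Values are CPM, the counts of a gene scaled to the TMM-adjusted size of its library and to one common total, and a difference is a log2 fold change from edgeR's quasi-likelihood test, IVF against Natural, with its standard error. P-values were adjusted by Benjamini-Hochberg over all genes tested, and a gene was called at an adjusted p under 0.05. The standard error was derived from the test, as the absolute fold change divided by the square root of the F statistic. A fold change is printed where it exceeded this standard error. Libraries held 6995713 to 43363799 counted reads in ovaries except for the 12-week IVF ovary replicate 4 with 2839022, 2532824 to 6345249 in cumulus cells and 4364495 to 8675189 in PGCs. All 12 granulosa markers were counted in each group of ovaries, and the summed granulosa level of 12-week ovaries was 2192 to 2813 CPM in Natural and 2494 to 4089 CPM in IVF. Oviduct epithelium markers (7 genes) at 12 weeks summed to 3148 to 7179 CPM in Natural and 17.8 to 2910 CPM in IVF. No library of one group lay within the range of the other. The same list reached 8149 CPM in the 39-week IVF ovary replicate 1 against at most 173 CPM in the other 39-week libraries. Luteal markers (5 genes) at 39 weeks summed to 12167 to 21885 CPM in Natural and 7106 to 17215 CPM in IVF. At E18.5 the 10 oocyte markers summed to 264 to 987 CPM in Natural and 47.2 to 302 CPM in IVF, and the 4 erythroid markers to 212 to 643 CPM in Natural and 514 to 1573 CPM in IVF. The part of each of these lists in the results below was not tested, beyond the scaling to granulosa markers given further on.

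Amh and the inhibin and activin subunits were higher in Natural adult than in Natural fetal ovaries, and Acvr2b was lower. In one fit of all 29 ovary libraries, 5 of the 9 members passed the test between Natural ovaries at 12 weeks and E18.5, 4 higher and 1 lower. That share stands against 49.7% of all 19724 genes tested (25.3% higher and 24.3% lower), so the members' share was near that of all genes. Without E18.5 Natural replicate 1 there were 7 calls, with Tgfbr3 (0.62, adjusted p = 0.00749, edgeR) and Acvr2a (0.55, adjusted p = 0.0375, edgeR) added. That fit called 9535 of all 20319 genes tested. Age cannot be told apart from the separately deposited tables of each age. In whole ovaries, more cells of a type and more RNA per cell cannot be told apart either.

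Amh was near the bottom of the family before birth and near the top in the adult. Its levels in Natural E18.5 ovaries were 5.74, 2.72, 1.10 and 5.41 CPM, and in Natural 12-week ovaries 268, 197, 228 and 270.5 CPM. All 12-week values lay far above all fetal values, a difference of 6.05 ± 0.59 on the log2 scale (adjusted p = 6.66e-09, edgeR). Natural 39-week ovaries held 57.9, 206, 75.9, 149 and 51.2 CPM, with the highest library among the 12-week values and the other 4 below them. The change from 12 to 39 weeks, -1.03 ± 0.43, did not pass the test (adjusted p = 0.0924, edgeR), although it did without 39-week Natural replicate 2 (-1.40, adjusted p = 0.0276, edgeR).

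Inha, the subunit that makes a dimer an inhibin, was 39.5, 43.6, 30.4 and 64.4 CPM in Natural E18.5 ovaries and 1113, 743, 719 and 1066 CPM in Natural 12-week ovaries. The ages did not overlap, and the difference was 4.44 ± 0.37 (adjusted p = 4.81e-10, edgeR). At 39 weeks the Natural ovaries held 354, 686, 1123, 879 and 893 CPM, a range that spanned the 12-week one.

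The beta subunits rose less steeply. Inhba was 11.0, 5.35, 8.38 and 9.67 CPM in Natural E18.5 ovaries and 75.4, 30.2, 54.9 and 152 CPM at 12 weeks, higher by 3.26 ± 0.66 (adjusted p = 0.000199, edgeR). Inhbb was 28.4, 21.5, 14.0 and 32.8 CPM at E18.5 and 308, 95.2, 200.3 and 163 CPM at 12 weeks, higher by 3.06 ± 0.55 (adjusted p = 4.65e-05, edgeR). Neither subunit overlapped between these ages. Fst rose as well, by 1.67 ± 0.36 (adjusted p = 0.000371, edgeR).

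Acvr2b was the member that fell, from 64.4, 54.0, 59.2 and 51.0 CPM in Natural E18.5 ovaries to 30.0, 24.4, 25.0 and 23.3 CPM at 12 weeks. The change was -1.08 ± 0.15 (adjusted p = 1.53e-06, edgeR), and every adult library lay below every fetal one. It was also the 1 of 9 members called between Natural ovaries at 39 and 12 weeks, a comparison in which 21.6% of all genes were called. Its 39-week levels of 26.5, 37.2, 32.5, 31.6 and 37.2 CPM were higher by 0.49 ± 0.14 (adjusted p = 0.014, edgeR), with 1 library inside the 12-week range. Fstl3 did not pass in that comparison (0.62 ± 0.26, adjusted p = 0.0899, edgeR) but did without 39-week Natural replicate 5 (0.78, adjusted p = 0.0429, edgeR).

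**Figure D1:**
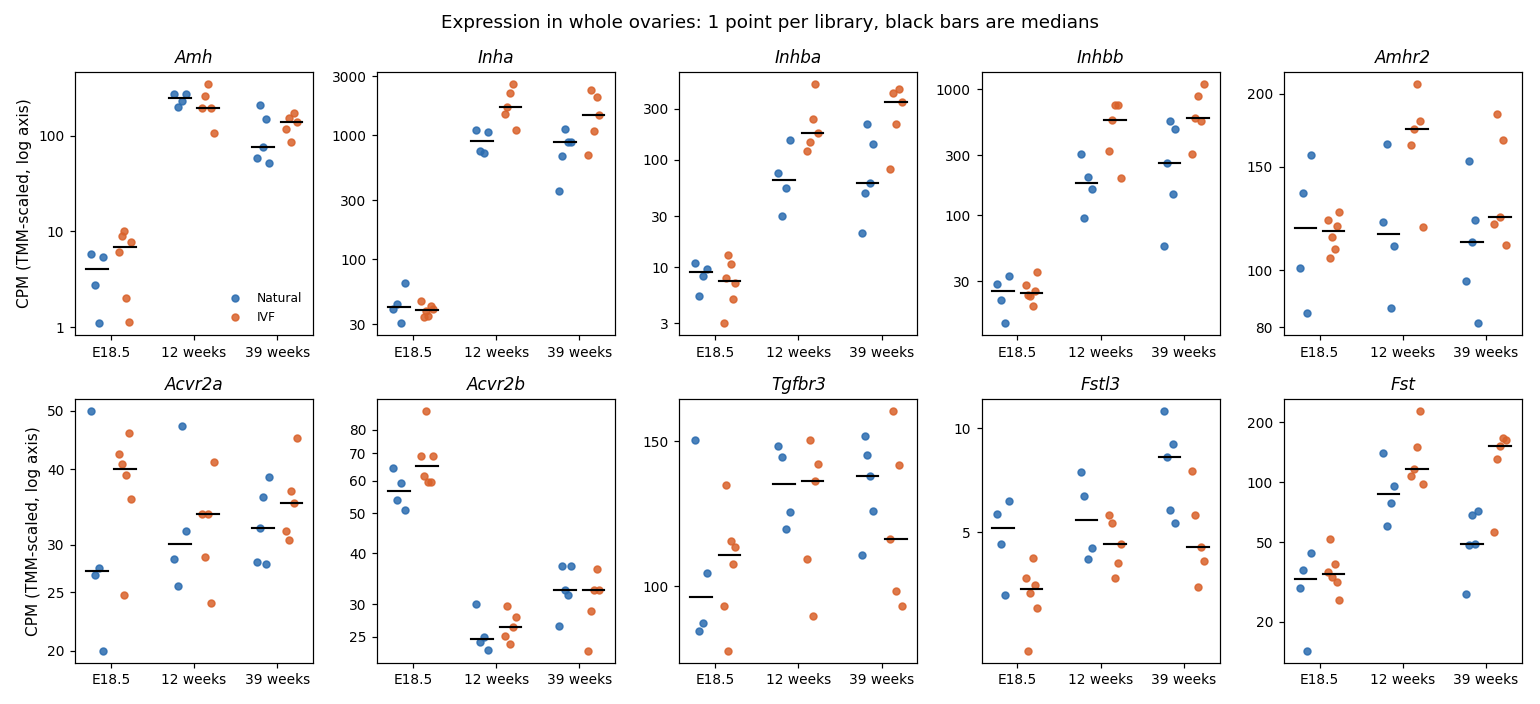
CPM of the 9 members and Fst in whole ovaries on log axes whose range differs between panels, with 1 point per library (Natural blue, IVF orange) at each of 3 ages and black bars for the medians. The 12-week values of Amh, Inha, Inhba and Inhbb lie above all E18.5 values, those of Acvr2b lie below them, and Natural and IVF points overlap in every panel and at every age.

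Length-adjusted levels (CPM per kb of annotated exon) allow the members to be ranked within a tissue. In Natural E18.5 ovaries the receptor Amhr2 led at a mean of 61.7 CPM per kb, ahead of Inha at 30.1, Tgfbr3 at 17.8 and Acvr2b at 16.0, while Amh (2.24) and Inhba (1.35) were last. The library ranges of Tgfbr3 and Acvr2b overlap on this scale, so their order is not set apart by the spread. In Natural 12-week ovaries Inha led at 617 CPM per kb, followed by Amh at 144, Amhr2 at 62.0, Inhbb at 45.1, Tgfbr3 at 21.8 and Inhba at 12.2. Fstl3 was the lowest adult member at 2.87 CPM per kb, against 33.1 for Fst.

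Cumulus cells, the granulosa-derived cells that surround the ovulated oocyte, had a different order. Inha stood at 874 CPM per kb in Natural pools and Fst at 110, whereas Inhbb was 3.90, Amhr2 4.25 and Amh 1.28. The ratio of Inhba to Inhbb (both per kb) was 3.88 to 14.1 in Natural cumulus pools and 0.163 to 0.621 in Natural 12-week ovaries. These cells came from superovulated donors and another library kit, so tissue, hormone treatment and kit cannot be told apart. All 5 markers of cumulus cells after hCG were counted in each group of pools, at a summed 357 to 936 CPM, and the 3 theca markers summed to 0 to 4.90 CPM in Natural and 0 to 2.46 CPM in IVF pools, with Cyp17a1 at 0 in all 10.

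**Figure D2:**
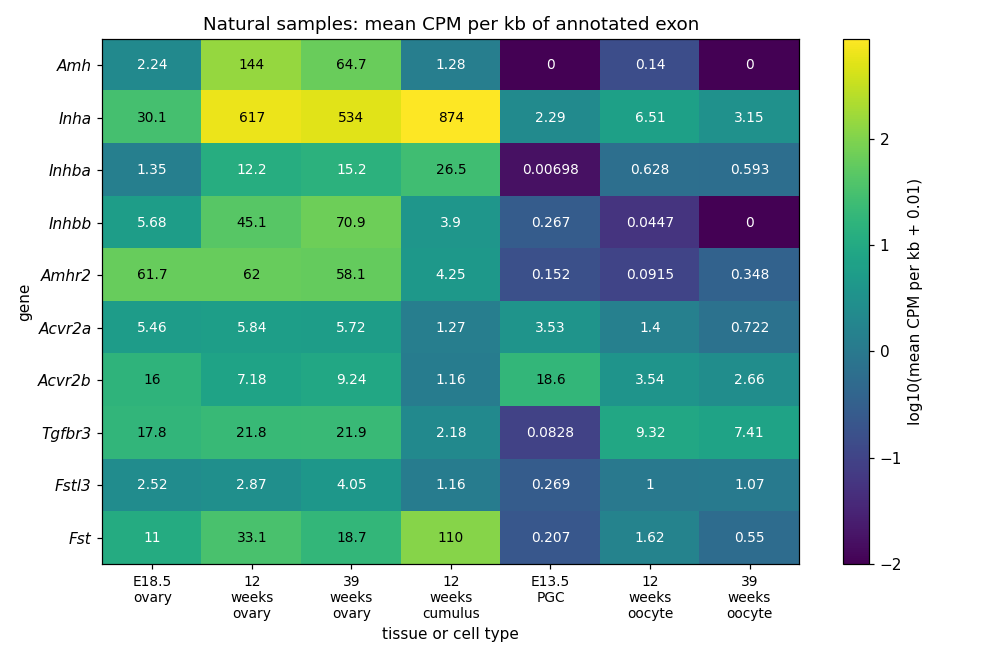
Mean CPM per kb of annotated exon in Natural samples, for 9 members and Fst (vertical axis) in 7 tissues or cell types (horizontal axis), with color giving log10 of the value plus 0.01. Inha reaches 617 in 12-week ovaries and 874 in cumulus cells, while Amh is 0 in PGCs and in 39-week oocytes.

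The question of the study was what IVF conception changed in the ovary. With edgeR, 0 of the 9 members passed in fetal, 12-week or 39-week ovaries, against 5.43%, 0.00567% and 0.262% of all genes tested at these ages. At an unadjusted p under 0.05 there were 1, 4 and 3 members, where the share over all genes was 24.1%, 14.4% and 19.2%. DESeq2, the other tool run, called 0, 3 and 1 members, against 10.6%, 3.62% and 6.11% of all genes. The largest differences, in the 12-week and 39-week ovaries, were in the inhibin and activin subunits, whose means were higher in IVF while the libraries of both groups overlapped. The members had median log2 fold changes of 0.06 in 12-week and 0.29 in 39-week ovaries, beside 0.01 and 0.03 over all genes, and of -0.02 in fetal ovaries, beside 0.00.

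Inha in 12-week ovaries was 1113, 743, 719 and 1066 CPM in Natural and 1482, 1707, 2216, 2614 and 1105 CPM in IVF. Of the IVF libraries, 4 of 5 lay above all Natural libraries and replicate 5 lay just under the highest Natural one. The group means were 910 ± 208 CPM (SD, n = 4) and 1825 ± 597 CPM (SD, n = 5). The difference of 1.00 ± 0.26 did not pass with edgeR (adjusted p = 0.166) but did with DESeq2 (adjusted p = 0.0102). Over all alternatives and omitted libraries this fold change ran from 0.83 to 1.13 and its adjusted p from 0.0102 to 0.34.

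The 39-week ovaries gave a difference of like size on other animals. Inha was 354, 686, 1123, 879 and 893 CPM in Natural and 699, 2341, 1095, 2056 and 1470.3 CPM in IVF. The groups overlapped in part, with 3 of 5 IVF libraries above all Natural ones. The fold change of 0.96 ± 0.36 did not pass with edgeR (adjusted p = 0.204), nor with DESeq2 or any other alternative (adjusted p from 0.0769 to 0.325). IVF replicate 1, which carried the oviduct markers, was the lowest IVF library.

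Inhba, whose dimer is activin A and which pairs with Inha to form inhibin A, was 75.4, 30.2, 54.9 and 152 CPM in Natural 12-week ovaries and 121, 147, 243, 511 and 179 CPM in IVF. The highest Natural library lay above the lowest pair of IVF libraries, and IVF replicate 4, the library with the fewest reads, was the highest. Its log2 fold change was 1.61 ± 0.53 (adjusted p = 0.232 with edgeR and 0.0316 with DESeq2). At 39 weeks the Natural ovaries held 20.8, 48.7, 215, 60.4 and 142 CPM and the IVF ovaries 81.6, 419.7, 216, 454 and 348 CPM. Here 4 of 5 IVF libraries lay above all Natural ones, by a margin of about 1 CPM for the lowest of the 4. The fold change was 1.64 ± 0.62 (adjusted p = 0.202 with edgeR and 0.0485 with DESeq2).

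Inhbb, the subunit of activin B and inhibin B, was 308, 95.2, 200.3 and 163 CPM in Natural 12-week ovaries and 324, 566, 746, 751 and 198 CPM in IVF. All IVF libraries but replicate 5 exceeded the highest Natural library. The difference of 1.43 ± 0.44 had an adjusted p of 0.213 with edgeR and 0.0259 with DESeq2. At 39 weeks Inhbb was 56.8, 261, 562, 147 and 482 CPM in Natural and 305, 586, 884, 559 and 1104 CPM in IVF. Values overlapped between 305 and 562 CPM, and the difference was 1.19 ± 0.56 (adjusted p = 0.272, edgeR).

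At E18.5 the subunits did not share this pattern. Inha ranged from 30.4 to 64.4 CPM in Natural and from 34.5 through a median of 39.0 to 46.4 CPM in IVF, so the IVF libraries lay within the Natural range. Inhba was 5.35 to 11.0 CPM in Natural and 3.01 to 13.1 CPM in IVF, and Inhbb was 14.0 to 32.8 CPM and 19.1 to 35.8 CPM. The Inha fold change of -0.18 ± 0.18 (adjusted p = 0.559, edgeR) turned to 0.05 without Natural replicate 4. The difference between ages was itself tested on the 29 ovaries. With edgeR, 0 of 9 members passed for the IVF effect at 12 weeks against E18.5 (0.314% of all genes), at 39 weeks against 12 weeks (2.71%) or at 39 weeks against E18.5 (7.95%). At an unadjusted p under 0.05 these comparisons held 2, 0 and 2 members, where the share over all genes was 14.0%, 20.0% and 25.4%. DESeq2 called 0, 0 and 1 (12.5% of all genes in the last).

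Inha had an IVF effect 1.21 ± 0.43 higher at 12 weeks than at E18.5 (adjusted p = 0.197, edgeR). For 39 weeks against E18.5 the value was 1.17 ± 0.41 (adjusted p = 0.0762 with edgeR and 0.0495 with DESeq2). It passed with edgeR without 39-week IVF replicate 1 (1.37, adjusted p = 0.0272). The same differences for Inhba were 1.77 ± 0.82 at 12 weeks and 1.83 ± 0.79 at 39 weeks (adjusted p = 0.333 and 0.142, edgeR), and for Inhbb 1.37 ± 0.67 and 1.14 ± 0.65 (adjusted p = 0.359 and 0.268, edgeR). All 3 subunits thus leaned the same way in both comparisons, which share the E18.5 libraries. No member had a difference beyond its standard error between 12 and 39 weeks except Fstl3, at -0.41 ± 0.36 (adjusted p = 0.592, edgeR).

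**Figure D3:**
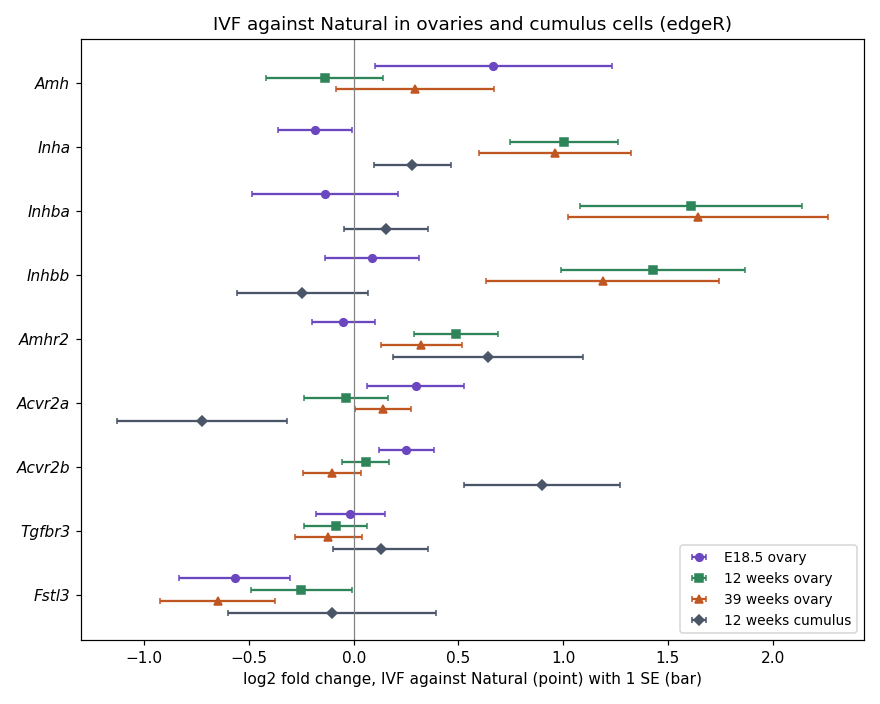
Log2 fold change of IVF against Natural from edgeR (horizontal axis, point) with bars of 1 standard error for each member (vertical axis) in ovaries at 3 ages and in 12-week cumulus cells; Amh was too low to test in cumulus cells. Inha, Inhba and Inhbb lie near 1.00 to 1.64 at 12 and 39 weeks and closer to 0 at E18.5 and in cumulus cells, and none of the points passed the test.

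Amh itself overlapped between the groups at every age. At E18.5 the Natural libraries held 5.74, 2.72, 1.10 and 5.41 CPM and the IVF libraries 1.12 to 9.98 CPM with a median of 6.88. Of the IVF libraries, 4 of 6 lay above all Natural ones and the lowest was level with the lowest Natural library, giving 0.67 ± 0.56 (adjusted p = 0.500435, edgeR). At 12 weeks Amh was 268, 197, 228 and 270.5 CPM in Natural and 195, 257, 346, 192 and 105 CPM in IVF, with 3 of 5 IVF libraries under the lowest Natural one and 1 above the highest. The 39-week levels were 57.9, 206, 75.9, 149 and 51.2 CPM in Natural and 117, 151, 85.1, 169.9 and 138 CPM in IVF. All 39-week IVF libraries lay within the Natural range. Neither adult difference exceeded its standard error.

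Among the receptors, Amhr2 had the larger adult difference. Its 12-week levels were 121, 164, 86.3 and 109.9 CPM in Natural and 163, 174, 208, 179.9 and 119 CPM in IVF. IVF libraries exceeded the Natural maximum in 3 of 5 cases, a difference of 0.49 ± 0.20 that did not pass (adjusted p = 0.307, edgeR). At 39 weeks the ranges were 81.3 to 153 CPM and 111 to 184 CPM (0.32 ± 0.19, adjusted p = 0.375, edgeR). E18.5 ranges were 84.8 to 157 CPM and 105 to 126 CPM, with the IVF libraries inside the Natural range.

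The activin receptors varied less. Acvr2b at E18.5 was 64.4, 54.0, 59.2 and 51.0 CPM in Natural and 59.7 to 88.8 CPM in IVF with a median of 65.3 (0.25 ± 0.13, adjusted p = 0.257, edgeR). The highest IVF library, replicate 3, stood apart from the other 5. Adult ranges of Acvr2b were 23.3 to 30.0 CPM in Natural against 24.0 to 29.7 CPM in IVF at 12 weeks, and 26.5 to 37.2 against 23.2 to 36.5 CPM at 39 weeks. Acvr2a ranged from 20.0 to 49.9 CPM over all 29 ovaries. Its E18.5 difference of 0.30 ± 0.23 (adjusted p = 0.466, edgeR) passed when Natural replicate 1, the highest library, was left out (0.62, adjusted p = 0.0499, edgeR). Over all genes that omission raised the calls from 891 of 16415 to 1973 of 16816. Tgfbr3, the inhibin coreceptor, lay between 83.5 and 163 CPM in all ovaries, and no difference between the groups exceeded its standard error.

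Fstl3 had lower means in IVF ovaries at all 3 ages, with no call. At E18.5 it was 5.66, 4.63, 3.29 and 6.15 CPM in Natural and 2.27 to 4.21 CPM in IVF with a median of 3.42, so 3 of 4 Natural libraries lay above all IVF ones (-0.57 ± 0.26, adjusted p = 0.207, edgeR). At 12 weeks the levels were 7.45, 6.35, 4.19 and 4.49 CPM in Natural and 5.61, 5.32, 3.68, 4.06 and 4.63 CPM in IVF (-0.25 ± 0.24, adjusted p = 0.652, edgeR). At 39 weeks they were 11.2, 8.27, 5.78, 8.98 and 5.32 CPM in Natural and 7.53, 5.59, 3.47, 4.53 and 4.13 CPM in IVF. Each age overlapped, and the 39-week difference was -0.65 ± 0.28 (adjusted p = 0.239, edgeR). The 12-week IVF replicate 4 held 12 counts of Fstl3, the fewest in any ovary.

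Fst went the other way at 39 weeks. Its levels were 27.7, 48.6, 68.2, 48.8 and 71.6 CPM in Natural and 56.5, 131, 153, 166 and 162 CPM in IVF. All IVF libraries but replicate 1 were above the highest Natural library. The fold change of 1.34 ± 0.32 did not pass with edgeR (adjusted p = 0.0915) and passed with DESeq2 (adjusted p = 0.00205). At 12 weeks Fst was 141, 60.5, 78.5 and 95.6 CPM in Natural and 108, 116, 151, 228 and 97.8 CPM in IVF (0.57 ± 0.29, adjusted p = 0.402, edgeR).

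Ratios within a library do not depend on its scaling, and no test was run on them. The antagonists (Fst plus Fstl3) over the beta subunits (Inhba plus Inhbb), per kb, came to 0.536 to 0.908 in Natural and 0.258 to 0.494 in IVF 12-week ovaries, without overlap. At 39 weeks the ranges were 0.163 to 0.935 and 0.189 to 0.301, the IVF range inside the Natural one. At E18.5 they were 1.47 to 2.59 and 1.11 to 2.90. The beta subunits over Inha had medians of 0.0988 in Natural and 0.135 in IVF at 12 weeks, and of 0.148 and 0.179 at 39 weeks, with overlap at both ages. Fst over Fstl3 ranged from 3.01 to 5.44 in Natural and from 5.89 to 15.8 in IVF ovaries at E18.5 without overlap, from 6.57 to 14.7 and from 13.3 to 38.7 at 12 weeks, and from 1.70 to 9.29 and from 5.18 to 30.4 at 39 weeks, with overlap at both adult ages. How often ratios of other genes separate the groups was not computed.

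**Figure D4:**
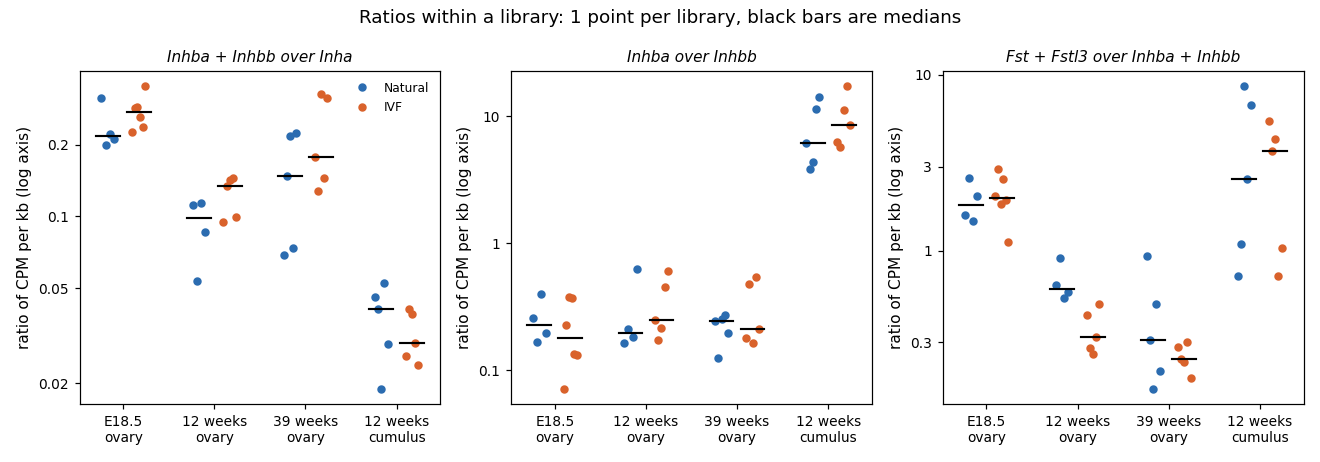
Ratios of CPM per kb within each library (vertical log axes whose range differs between panels), with 1 point per library (Natural blue, IVF orange) and black bars for medians, in ovaries at 3 ages and in 12-week cumulus cells. The ratio of Fst plus Fstl3 to Inhba plus Inhbb separates Natural (0.536 to 0.908) from IVF (0.258 to 0.494) ovaries at 12 weeks but at no other age, and cumulus cells have the highest ratios of Inhba to Inhbb.

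Because the subunits are made by granulosa cells, each library was also scaled to the mean log2 CPM of 12 other granulosa markers (11 pregranulosa markers at E18.5) in place of TMM. This scaling moved the median of all genes to -0.31 in fetal ovaries and to -0.28 and -0.31 in 12-week and 39-week ovaries. Those medians were not subtracted from the values below, which are to be read beside them. With edgeR 0 of 9 members passed at each age, against 11%, 0.442% and 0% of all genes. At an unadjusted p under 0.05 there were 2, 3 and 2 members, where the share over all genes was 30.9%, 16.7% and 12.4%. DESeq2 was not run with this scaling. The list scaled by its summed CPM also gave 0 members at each age.

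Relative to granulosa markers, Inha in 12-week IVF ovaries differed by 0.66 ± 0.21 (adjusted p = 0.155, edgeR), Inhba by 1.28 ± 0.42 (adjusted p = 0.168, edgeR) and Inhbb by 1.08 ± 0.34 (adjusted p = 0.145, edgeR). Inhbb passed without IVF replicate 5 (1.24, adjusted p = 0.0459, edgeR). That omission also raised the calls over all genes from 78 of 17628 to 1144 of 17792. At 39 weeks the same genes differed by 0.59 ± 0.27, 1.29 ± 0.46 and 0.97 ± 0.47 (adjusted p = 0.399, 0.358 and 0.414, edgeR). The subunits thus stayed above the marker list as well as above the median of all genes, without a call. Amh at 12 weeks was -0.47 ± 0.25 on this scale (adjusted p = 0.355, edgeR), below the median of all genes. The differences of Amhr2 with TMM, 0.49 at 12 weeks and 0.32 at 39 weeks, no longer exceeded their standard errors on this scale. The median of all genes moved from 0.01 to -0.28 at 12 weeks and from 0.03 to -0.31 at 39 weeks. Amhr2 lay above that median on both scales at both ages. In fetal ovaries Inha was -0.42 ± 0.19 and Fstl3 -0.82 ± 0.31 against pregranulosa markers (adjusted p = 0.127 and 0.0801, edgeR), both below the median of all genes. Fstl3 was -0.53 ± 0.31 at 12 weeks and -1.003 ± 0.50 at 39 weeks (adjusted p = 0.387 and 0.42, edgeR).

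**Figure D5:**
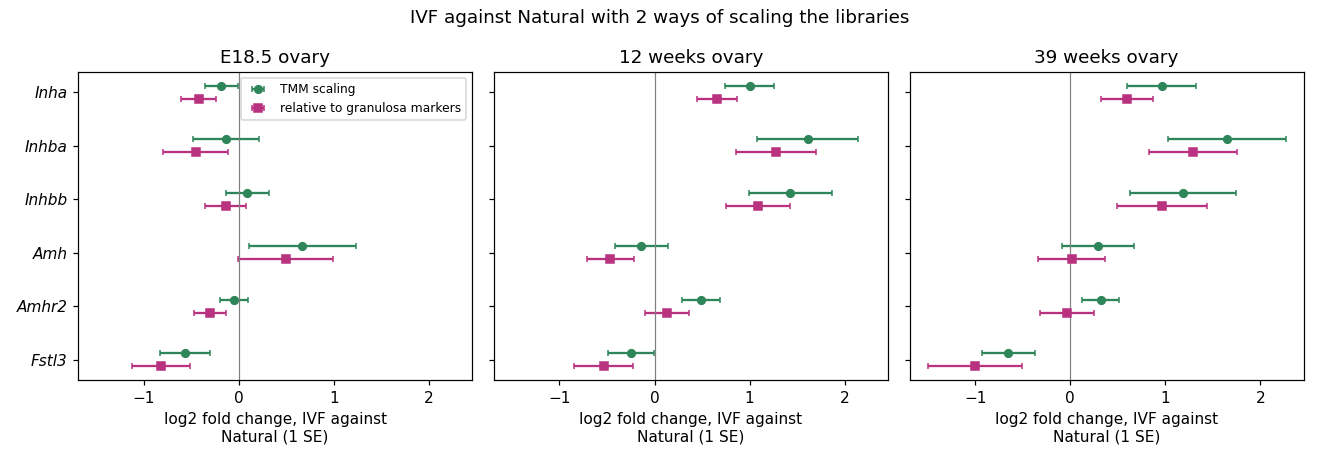
Log2 fold change of IVF against Natural (horizontal axis, point) with bars of 1 standard error for 6 genes (vertical axis) in ovaries at 3 ages, with TMM scaling (green circles) and relative to granulosa markers (magenta squares). All points shift to the left with the second scaling, as does the median of all genes. Inha, Inhba and Inhbb remain to the right of 0 at 12 and 39 weeks. The 12-week and 39-week differences of Amhr2 no longer exceed their standard errors.

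In 12-week cumulus cells 8 of the 9 members were abundant enough to test, and edgeR called 0 against 0.00973% of all genes. At an unadjusted p under 0.05 there was 1 member, where the share over all genes was 6.08%, and DESeq2 called 0. The pools carry 2 kinds of library name, which occur in both groups and were kept as a term in the fit. Fst was 54.6 to 83.2 CPM in the 4 pools of one kind and 309 to 589 CPM in the 6 of the other, and Tgfbr3 (6.67 to 9.19 against 13.0 to 23.4 CPM) and Acvr2b (0.860 to 4.43 against 4.90 to 10.3 CPM) were also apart. Whether the names mark collections is not given in the sources used here.

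Acvr2b was the member with the unadjusted p under 0.05. It was 1.45, 0.860, 4.90, 6.45 and 7.01 CPM in Natural pools 1 to 5 and 8.45, 10.2, 10.3, 4.43 and 1.79 CPM in IVF pools 1 to 5. Within the first kind of library the Natural pools held 0.860 to 1.45 CPM and the IVF pools 1.79 to 4.43 CPM (n = 2 each). Within the second kind the ranges were 4.90 to 7.01 and 8.45 to 10.3 CPM (n = 3 each). The groups also did not overlap for Amh, Amhr2, Inha, Inhbb and Tgfbr3 within the first kind, nor for Acvr2a within the second. The share of all genes that separate this way was not computed. The difference of Acvr2b was 0.90 ± 0.37 (adjusted p = 0.73, edgeR), on 4 to 48 counts per pool. Acvr2a leaned the other way, at 10.1, 1.72, 6.82, 7.43 and 9.90 CPM in Natural and 3.52, 5.52, 5.51, 3.61 and 3.41 CPM in IVF, with 4 of 5 Natural pools above all IVF ones (-0.73 ± 0.41, adjusted p = 0.848, edgeR).

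The ligand genes overlapped widely in cumulus cells. Inha was 916, 1014, 1889, 1216 and 1411 CPM in Natural and 1575, 1295, 1582, 1717 and 1491 CPM in IVF, the latter inside the Natural range (0.28 ± 0.19, adjusted p = 0.875, edgeR). Inhba ran from 126 to 254 CPM in Natural and from 138 to 247 CPM in IVF, and Inhbb from 7.84 to 24.5 and from 7.88 to 22.5 CPM. Amhr2 was 4.35, 10.3, 4.90, 17.6 and 4.13 CPM in Natural and 12.7, 17.6, 2.41, 15.8 and 15.9 CPM in IVF (0.64 ± 0.46, adjusted p = 0.89, edgeR). Amh reached 7.74 CPM at most, on 2 to 26 counts.

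Counted over the whole table, Natural and IVF values failed to overlap for 8.61% of genes at E18.5, 6.09% at 12 weeks, 5.11% at 39 weeks and 0.759% in cumulus cells, and for 0 of the 9 members in each of these.

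The activin receptors were the members with the highest levels in PGCs, at a mean of 18.6 CPM per kb for Acvr2b and 3.53 for Acvr2a in Natural pools, ahead of Inha at 2.29, while Amhr2 (0.152) and Tgfbr3 (0.0828) were low. Amh had no count in any of the 9 PGC libraries, a count that allows up to 0.292 to 0.737 CPM at a floor of 3 counts per library. Acvr2b was 29.5, 104, 59.3 and 72.7 CPM in Natural and 29.3, 87.8, 66.0, 43.8 and 48.0 CPM in IVF PGCs, and Acvr2a was 10.1 to 33.2 CPM and 18.0 to 29.2 CPM. Every other member stayed under 5 CPM except Inha in Natural replicate 2 (10.8 CPM). The 12 granulosa markers summed to 22.1 to 42.7 CPM in Natural and 23.7 to 39.1 CPM in IVF PGCs, with Foxl2 and Fshr at 0 in all 9 libraries, and their part in these values was not tested. Of 4 members abundant enough to test, edgeR called 0 against 0% of all genes, and DESeq2 called 0. At an unadjusted p under 0.05 there were 0, where the share over all genes was 2.73%. Intervals and floors here cover counting error only.

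In oocytes Tgfbr3 and Inha had the highest mean levels of the family per kb. Tgfbr3 led in Natural 12-week sets (9.32 against 6.51 CPM per kb for Inha), and Inha led in IVF sets (9.77 against 8.56 CPM per kb), with wide overlap over the sets. Single 12-week oocytes were summed into 5 sets per group by the first fields of their library names, which may mark females or collections. Tgfbr3 was 54.1, 69.2, 58.1, 51.9 and 50.3 CPM in Natural sets and 60.7, 39.7, 55.3, 46.4 and 58.5 CPM in IVF sets, with wide overlap. Here edgeR called 0 of 6 members tested against 0.0277% of all genes, and DESeq2 called 0. At an unadjusted p under 0.05 there were 0 members, where the share over all genes was 6.67%. Inha was counted in 27 of 36 Natural and 26 of 40 IVF oocytes, at up to 468 and 1392 counts in 1 oocyte, and ran from 2.81 to 16.7 CPM over Natural sets and from 3.25 to 29.2 CPM over IVF sets (0.59 ± 0.58, adjusted p = 0.905, edgeR). The cumulus markers summed to 9.30 to 40.2 CPM over the sets, and their part in the Inha counts was not tested.

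The 39-week oocytes are given as values, since no label ties them to a female. Tgfbr3 ranged from 26.5 through a median of 44.5 to 78.2 CPM in 9 Natural oocytes and from 6.84 through 23.5 to 41.7 CPM in 10 IVF oocytes, so 5 of 9 Natural oocytes lay above all IVF ones and 4 within their range. Inha was counted in 4 of 9 Natural and 5 of 10 IVF oocytes. Its highest value, 59.7 CPM in IVF oocyte 10, came with the highest cumulus marker sum of 49.9 CPM and with 15.2 CPM of Fst. Amh had no count in any of the 19 oocytes (floors of 0.0791 to 0.836 CPM), and Inhbb had none in the 9 Natural oocytes.

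The wider pathway was read from a list of 43 further genes (receptors, SMAD proteins, convertases, targets and regulators). Between Natural ovaries at 12 weeks and E18.5, 12 of the 41 list genes tested rose and 14 fell, where 25.3% of all genes were higher and 24.3% lower. Of 10 signal transducers 6 fell and 0 rose, among them Smad3, a transducer of activin signals, from 180 to 261 CPM at E18.5 to 82.6 to 94.0 CPM at 12 weeks (-1.31 ± 0.15, adjusted p = 5.25e-08, edgeR). Id1, a target of BMP-type SMADs, fell by 1.87 on the log2 scale (adjusted p = 1.41e-07, edgeR), and the convertase Pcsk6 by 2.78 (adjusted p = 1.36e-08, edgeR).

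Of 8 regulators of Amh and inhibin transcription 4 rose, 1 fell and 3 were not called, beside the same 25.3% higher and 24.3% lower over all genes. The FSH receptor gene Fshr went from 0 to 0.363 CPM at E18.5 to 5.95 to 16.7 CPM at 12 weeks (6.49 ± 0.76, adjusted p = 1.2e-07, edgeR), a fold that depends on the prior count because the fetal values are at or near the floor. Nr5a2, a nuclear receptor of granulosa cells, rose from 12.8 to 18.9 CPM to 165 to 331 CPM (4.06 ± 0.31, adjusted p = 8.76e-11, edgeR), and the estrogen receptor Esr2 rose by 2.85 ± 0.42 (adjusted p = 3.89e-06, edgeR).

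From 12 to 39 weeks in Natural ovaries 9 of 41 list genes rose and 1 fell, where 10% of all genes were higher and 11.6% lower. Eng, a coreceptor of the family, rose by 1.10 ± 0.14 (adjusted p = 2.86e-05, edgeR), Smad9 by 1.03 ± 0.25 (adjusted p = 0.00566, edgeR), Smad2 by 0.61 ± 0.14 (adjusted p = 0.00303, edgeR) and Smad3 by 0.60 ± 0.14 (adjusted p = 0.00365, edgeR). Acvr1, a type I receptor, rose by 0.63 ± 0.18 (adjusted p = 0.0139, edgeR), and the type I receptor Bmpr1b fell by 0.91 on the log2 scale (adjusted p = 0.0281, edgeR).

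IVF against Natural left most of the list without a call. With edgeR, calls were made for 1 of 39 list genes at E18.5, 0 of 41 at 12 weeks, 0 of 40 at 39 weeks and 0 of 29 in cumulus cells, with medians of 0.07, 0.20, 0.10 and -0.03 over the list, and DESeq2 called 3, 5, 4 and 0. Over all genes edgeR called 5.43%, 0.00567%, 0.262% and 0.00973%, and DESeq2 10.6%, 3.62% and 6.11% in the ovaries. At an unadjusted p under 0.05 edgeR gave 7, 14, 9 and 3 list genes, where the share over all genes was 24.1%, 14.4%, 19.2% and 6.08%. The E18.5 gene was Lhcgr, the LH receptor, which was 0.181 to 0.541 CPM in Natural and 1.25 to 4.24 CPM in IVF (2.33 ± 0.51, adjusted p = 0.0241, edgeR). This fold depends on the prior count, because the Natural values at E18.5 are at or near the floor of 0.202 to 0.298 CPM. Relative to pregranulosa markers Id3 was also called there (-0.76 ± 0.20, adjusted p = 0.0242, edgeR), below the shifted median of all genes. Sox9, a regulator of Amh in the testis, was called at 12 weeks on the granulosa scale (-1.62 ± 0.29, adjusted p = 0.0414, edgeR), at 38.1 to 55.7 CPM in Natural and 11.0 to 25.7 CPM in IVF. Sox9 moved with the oviduct markers given above and reached 102 CPM in the 39-week IVF replicate 1 that carried them, against at most 28.6 CPM in the other 39-week ovaries. The part of those markers was not tested.

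The IVF effect differed between ages for 1 of 41 list genes at 39 against 12 weeks (2.71% of all genes), for 2 of 41 at 39 weeks against E18.5 (7.95%) and for 0 of 41 at 12 weeks against E18.5 (0.314%), so the list did not exceed the share over all genes in the comparisons with a call. For Eng the effect was 0.93 lower on the log2 scale at 39 than at 12 weeks (-0.93 ± 0.19, adjusted p = 0.0169, edgeR). Its levels were 105 to 137 CPM in Natural and 124 to 174 CPM in IVF at 12 weeks, and 201 to 266 CPM and 127 to 172 CPM at 39 weeks, where the groups did not overlap. Nr5a2 (1.41 ± 0.36, adjusted p = 0.0161, edgeR) and Kitl, the Kit ligand of granulosa cells (-1.07 ± 0.34, adjusted p = 0.0488, edgeR), differed between 39 weeks and E18.5. Kitl was 80.9 to 192 CPM in Natural and 118 to 287 CPM in IVF at E18.5, and 79.1 to 97.0 CPM and 55.0 to 104 CPM at 39 weeks.

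Across the 19 adult ovaries, after the mean of each age and conception group was subtracted, the genes most like each member by Pearson correlation of log2 CPM are given as a description. These points share libraries, tables and depth. Inhba was followed most closely by Mtcl1 (r = 0.95), Grem1 (r = 0.95) and Trib2 (r = 0.94), Inha by Chst8 (r = 0.93), Aff2 (r = 0.93) and Pak3 (r = 0.91), and Inhbb by Car14 (r = 0.89), Hey2 (r = 0.88) and Fst (r = 0.85). Amh was followed by Jsrp1 (r = 0.90), Evl (r = 0.89) and Nuf2 (r = 0.89), Amhr2 by Trp53, Slbp and Ing4 (r = 0.89, 0.87 and 0.86), and Fstl3 by Lgals1, Oaz2 and Ppp1r35 (r = 0.89, 0.85 and 0.85). For Acvr2a these were Slc35a3, Usp9x and 0610010F05Rik (r = 0.90, 0.89 and 0.88), for Acvr2b Bach1, Zfp568 and Dip2b (r = 0.82, 0.81 and 0.81), and for Tgfbr3 Ptrf, LOC102632302 and Boc (r = 0.83, 0.82 and 0.81). Among the members, Inha and Inhba moved together (r = 0.86), as did Inhba and Inhbb (r = 0.74), and Amh and Amhr2 (r = 0.68), while Fstl3 ran against Inhba (r = -0.69) and Inhbb (r = -0.67).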

How the data were processed

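Members and gene lists were chosen with earlier results of these data known. The authors deposited raw read counts per gene for each library, not normalized, in 7 tables (35976 gene names on mm10). Tissue libraries were made with the KAPA Stranded mRNA-Seq kit, and cumulus and oocyte libraries with a modified SMART-seq protocol. The submitters' processing notes list Trimmomatic 0.32, STAR 2.3.0e, featureCounts 1.5.0 and DESeq2.

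Here each table was fitted alone with edgeR 4.0.16 (limma 3.58.1, R 4.3.3): TMM scaling, filterByExpr, quasi-likelihood test, Benjamini-Hochberg adjustment over all genes tested, and a threshold of 0.05. Comparisons between ages used one fit of all 29 ovaries. Log2 CPM used a prior count of 2, and floors were 3 counts per library. Levels per kb used the exonic bases of the annotation. The alternatives were DESeq2 1.42.0, its size factors, no low-count filter, a replicate block and each library left out in turn. The code was tested on simulated data. Summaries and figures used Python 3.11.15, pandas 2.3.3, numpy 2.4.6 and matplotlib 3.10.9.

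Members were taken by name. Genes of the pathway list were named if they passed the test, up to 6 with the smallest p in a comparison, and 3 genes were named as most like each member. Total counts were 2532824 to 43363799 in bulk ovaries and cumulus pools. Low counts were mostly even, so the counting error is larger than that of independent reads. Nothing states that replicates of a group shared a culture, and p-values measure the spread between these samples. The methods allow littermates within adult cohorts and give different litters for the sequenced ovaries. No sample label gives the litter, so litter was not part of any fit.

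Groups followed the labels. Cumulus Natural replicate 5 shares name fields with IVF oocytes and was kept as labelled. One 39-week Natural ovary, replicate 5, is given as 40 weeks in another label. The 12-week oocyte sets may be females or collections. The 39-week cumulus cells were not analysed here.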

Additional observations from a re-analysis of the deposited data

Results flagged for a closer look

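Of 118 groups of 4 to 10 samples, 9 held a highest sample far from the others by Dixon's test, which chance gives in about 1 in 20 groups. Acvr2b in E18.5 IVF ovary replicate 3 was 88.8 CPM, with 59.7 to 69.1 CPM in the other 5. In PGCs, Natural replicate 2 was highest for Amhr2 (1.18 CPM, 0 in the others), Inhbb (3.74 CPM, 0 to 0.441 in the others) and Fstl3 (1.28 CPM, 0.220 to 0.357 in the others). Inhba in Natural replicate 3 (0.179 CPM) and IVF replicate 3 (0.206 CPM) rests on 1 and 2 counts, under the floor of 3, beside 0 in the others, so nothing can be read from it. Fst was highest in IVF replicate 2 (2.02 CPM, 0.343 to 0.620 in the others). In the 12-week oocyte sets, Inhbb was highest in IVF set 2 (0.481 CPM, 0 to 0.0909 in the others) and Acvr2a in Natural set 1 (13.6 CPM, 5.93 to 7.54 in the others).

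The IVF effect differed between ages for 3 pathway genes by the test of that difference in edgeR, fitted across all genes: Eng by -0.93 between 39 and 12 weeks (adjusted p = 0.0169), and, between 39 weeks and E18.5, Nr5a2 by 1.41 (adjusted p = 0.0161) and Kitl by -1.07 (adjusted p = 0.0488). Of the 41 list genes tested these are 1 and 2, where 2.71% and 7.95% of all genes were called.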

How the results depend on the processing

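Over 62 values and 1182 alternative results, 1169 kept their direction and side of the threshold, 11 newly passed it, 0 lost it and 2 reversed. DESeq2 called 3 members at 12 weeks (Inha, Inhba and Inhbb), 1 at 39 weeks (Inhba) and 1 for the IVF effect at 39 weeks against E18.5 (Inha), where edgeR called 0 each. The cause was not tested. Over all genes, edgeR and DESeq2 called 891 and 1870 at E18.5, 1 and 646 at 12 weeks, 45 and 1091 at 39 weeks, and 1 and 27 in cumulus cells.

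With each library left out in turn, called members ranged from 0 to 1 at E18.5, for the 12-week ovary relative to granulosa markers and for the IVF effect at 39 weeks against E18.5, from 1 to 2 for Natural ovaries at 39 against 12 weeks, and from 5 to 7 for 12 weeks against E18.5, where Tgfbr3 and Acvr2a were added without E18.5 Natural replicate 1. In the other comparisons they stayed at 0. Over all genes, calls rose from 891 to 1973 at E18.5 without Natural replicate 1, which added Acvr2a. On the granulosa scale at 12 weeks they rose from 78 to 1144 without IVF replicate 5, which added Inhbb. Inha at E18.5 ran from -0.33 to 0.049 (0.049 without Natural replicate 4), and Acvr2a in oocyte sets from -0.38 to 0.0090 (0.0090 without Natural set 1).

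Correlations of same-numbered deviations were -0.13 to 0.01 at E18.5, -0.36 to 0.25 at 12 weeks and -0.01 to 0.40 at 39 weeks. They were -0.32 to 0.17 in cumulus cells and -0.07 to 0.54 in PGCs. Correlations of differently numbered samples were not computed, so these values cannot decide whether the replicate numbers pair the samples. With a replicate block 0 members were called in each of these 5 tables, and 3, 0, 24, 24 and 0 genes in all. No paired fit was run for the oocyte sets. Cumulus cells gave 0 members without the library kind in the model and with Natural replicate 5 counted as IVF. Amh in cumulus cells and most members in PGCs were too low to test.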
